A study of Mus musculus with 18 samples.

Results

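Genes that mark oligodendrocyte precursor cells were followed in ventral dentate gyrus tissue of adult male mice whose mothers or grandmothers lacked 1 copy of the serotonin 1A receptor gene. The set holds 10 of the 34620 genes listed in the count tables, taken by symbol and chosen with earlier results of these data known. They are Pdgfra, Cspg4, Olig1, Olig2, Sox10, Gpr17, Lhfpl3, C1ql1, Vcan and Bcas1. All 10 had enough reads to be tested, as did 17421 genes in all. RNA-Seq was performed on 6 libraries, 2 from each of 3 groups of Swiss Webster males aged 8 to 12 weeks. In the WT group the labels give a WT genotype to mother and grandmother. The F1 group had 5HT1A-/+ mothers and 5HT1A-/+ grandmothers. For the F2 group the mothers were WT and the grandmothers 5HT1A-/+. F1 and F2 males were themselves genetically WT and carried no mutant copy. Per the paper's methods, F1 males came from crosses of heterozygous mothers with heterozygous fathers. F2 males had F1 mothers and WT fathers, and the WT group came from a separate WT line. The paper states that the offspring came from at least 3 different litters. How many animals went into a library is not stated in the sources used here. If the 2 libraries of a group come from the same animals, the p-values measure technical spread only. If each is a pool of animals, they rest on the spread between pools, not between animals.

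Oligodendrocyte precursor cells are the dividing glia of the adult brain that give rise to the myelinating oligodendrocytes. They sense platelet-derived growth factor through the receptor encoded by Pdgfra, carry the proteoglycan NG2 encoded by Cspg4 on their surface, and depend on the transcription factors Olig1, Olig2 and Sox10. As a precursor commits to differentiation it passes through a stage marked by the receptor Gpr17 and then by Bcas1, before the genes of compact myelin dominate. In the dentate gyrus such cells lie scattered among the granule neurons, so that a dissected granule cell layer carries a share of their RNA. The comparison asked whether the level of these transcripts differed between the groups. The genotype of mother or grandmother cannot be told apart here from that of male ancestors or from the breeding line.

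The libraries held between 26358165 and 33727936 reads counted on genes. Values are given as CPM, read counts scaled to a common library size with edgeR's TMM factors. Adjusted p-values come from edgeR's exact test with Benjamini-Hochberg correction over all tested genes, and a gene was called at an adjusted p under 0.01. F1 and F2 were each compared with the same 2 WT libraries, so these comparisons are not independent. The granule neuron list, with Prox1 and Calb1 among its 10 genes, summed to between 2940 and 3273 CPM. Every gene of the oligodendrocyte, astrocyte, microglia, endothelial, pericyte and fibroblast lists had reads in at least 1 library. The myelin and mature oligodendrocyte list summed to between 1265 and 3264 CPM and the astrocyte list to between 2690 and 4330 CPM. At such levels the dissected layer was not free of other cells. Less RNA per cell and fewer cells of a type cannot be told apart in such bulk samples. Reads that lay outside annotated exons or reached beyond them made up 17.7% and 20.7% of the uniquely aligned reads in the WT libraries. Their share was 13.8% and 12.3% in F1, and 13.9% and 17.4% in F2. The part of this difference in the results was not tested.

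Because the 10 genes were chosen with earlier results known, the values over all genes are set beside theirs as description, not as a test. Of the 10 precursor genes, 3 rose in F1 relative to WT and none fell. The genes that rose were Gpr17, Pdgfra and Olig1, by 1.76-fold, 1.62-fold and 1.43-fold. Among all tested genes 3.77% were called higher in F1. In F2, 3 precursor genes were again called higher and none lower, where 3.86% of all tested genes were called higher. These were Lhfpl3 at 2.16-fold, Pdgfra at 1.84-fold and Olig1 at 1.49-fold. Pdgfra and Olig1 were thus called in both comparisons, Gpr17 in F1, and Lhfpl3 in F2. At an adjusted p under 0.05 the count stayed at 3 in F1 (8.08% of all genes) and was 5 in F2 (8.21% of all genes), with Cspg4 and Gpr17 added. The log2 fold change was above 0 for 9 of 10 genes in F1 and for 9 of 10 in F2, against 50.9% and 50.0% of all tested genes, and Vcan was the exception in both. The median log2 fold change over the 10 genes was 0.46 in F1 and 0.43 in F2, beside 0.0094 and -0.00035 over all genes. For the astrocyte, microglia and endothelial lists it was 0.30, 0.33 and 0.38 in F1 and 0.48 each in F2. For the myelin and mature oligodendrocyte list the median was 0.80 in F1 and 0.59 in F2. A rise of this size was thus not particular to the precursor genes in either comparison.

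The calls depended on the test and on single libraries. By edgeR's quasi-likelihood test only Gpr17 passed in F1 and only Pdgfra in F2, where 1.18% and 1.23% of all genes were called higher. Without WT replicate 1, Gpr17 alone remained called in F1 and no precursor gene was called in F2, with Pdgfra at an adjusted p of 0.0106. Without F1 replicate 2, the count in F1 was 1 (Gpr17), and without F2 replicate 2 the count in F2 was 1 (Pdgfra). With a library left out, its group keeps a single library that is assumed to vary like the others.

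**Figure D1:**
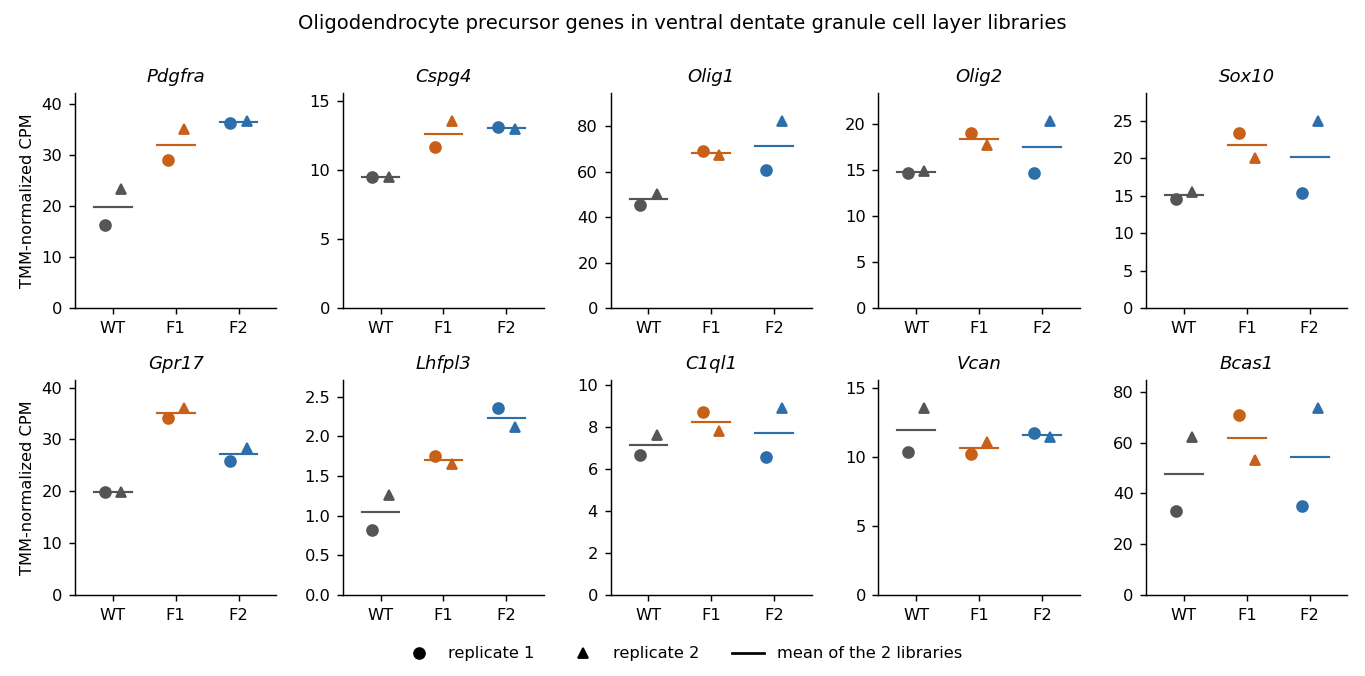
TMM-normalized CPM of the 10 oligodendrocyte precursor genes (vertical axes from 0, 1 panel a gene) in the WT, F1 and F2 libraries, with circles for replicate 1, triangles for replicate 2 and bars for the mean of the 2 libraries. Pdgfra, Cspg4, Olig1, Gpr17 and Lhfpl3 lie above both WT libraries in all F1 and F2 libraries, while Bcas1 varies as much within WT and F2 as between groups.

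Pdgfra encodes the alpha receptor for platelet-derived growth factor, which drives division and survival of the precursors. It lies on chromosome 5 from 75548316 to 75594229 on the forward strand (mm9). Its level was 16.3 and 23.3 CPM in the WT libraries, 28.9 and 35.0 CPM in F1, and 36.2 and 36.6 CPM in F2. All F1 and F2 libraries were above both WT libraries, and the WT libraries differed from each other more than the F2 libraries did. Mean levels were 19.8 ± 4.96 CPM for WT, 32.0 ± 4.26 CPM for F1 and 36.4 ± 0.266 CPM for F2 (SD, n = 2 each). The log2 fold change was 0.69 in F1 (standard error 0.18, adjusted p = 0.00131) and 0.88 in F2 (standard error 0.18, adjusted p = 2.28e-05). With a library left out the F1 value ran from 0.46 to 0.98 and the F2 value from 0.65 to 1.17, and the lowest of each came without WT replicate 1. The F1 call was lost without WT replicate 1 (adjusted p = 0.0879) and without F1 replicate 2 (adjusted p = 0.0516), and the F2 call without WT replicate 1 (adjusted p = 0.0106). Fibroblasts of the meninges and vessels also express Pdgfra. Their list of 12 genes summed to 193 and 220 CPM in WT, 124 and 236 CPM in F1, and 320 and 213 CPM in F2. The sum was highest in F2 replicate 1 and F1 replicate 2 and lowest in F1 replicate 1, and its part in the Pdgfra values was not tested.

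The other genes of the platelet-derived growth factor system were 4 ligand genes, the beta receptor gene and the receptor-like gene Pdgfrl. Of these 6, Pdgfb was called in F1, where it rose from 16.9 and 13.6 CPM in WT to 22.4 and 22.6 CPM (log2 fold change 0.56, standard error 0.16, adjusted p = 0.00475). In F2, 17.9 and 18.8 CPM were measured for Pdgfb, with an adjusted p of 0.252, and none of the 6 was called. The F1 call of Pdgfb was lost by the quasi-likelihood test and with any single library but WT replicate 1 left out. Pdgfa, the main ligand for the precursor receptor, was at 30.4 and 31.5 CPM in WT, 34.8 and 31.2 CPM in F1, and 28.3 and 33.6 CPM in F2, with overlapping groups. Pdgfrb, the beta receptor of pericytes, stood at 16.1 and 18.1 CPM in WT, 16.1 and 20.4 CPM in F1, and 20.8 and 17.5 CPM in F2. Pdgfc, Pdgfd and Pdgfrl were low, between 1.06 and 5.09 CPM.

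Cspg4 encodes NG2, a chondroitin sulphate proteoglycan that spans the membrane of precursors and of pericytes. Its place is chromosome 9 from 56712911 to 56747677 (mm9). Cspg4 was at 9.50 and 9.47 CPM in WT, 11.7 and 13.5 CPM in F1, and 13.1 and 12.96 CPM in F2. WT lay below every F1 and F2 library with almost no spread between its 2 libraries. The log2 fold changes were 0.41 in F1 (standard error 0.18, adjusted p = 0.0813) and 0.46 in F2 (standard error 0.18, adjusted p = 0.0488), which did not pass. The 12 pericyte genes summed to 138 and 155 CPM in WT, 164 and 214 CPM in F1, and 203 and 185 CPM in F2, and Vtn alone of them was called, in F2. Their part in the Cspg4 values was not tested.

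Gpr17, a G protein-coupled receptor of precursors that have committed to differentiate, had the lowest adjusted p of the 10 genes in F1. It lies on chromosome 18 from 32102651 to 32109290 on the reverse strand (mm9). Gpr17 was measured at 19.97 and 19.9 CPM in WT, 34.1 and 36.0 CPM in F1, and 25.9 and 28.4 CPM in F2. The 3 groups did not overlap, with F2 between WT and F1. The log2 fold change was 0.82 in F1 (standard error 0.14, adjusted p = 2.14e-07). In F2 it was 0.45 (standard error 0.14, adjusted p = 0.0116), and between F2 and F1 it was -0.37 (95% interval -0.64 to -0.10, unadjusted p = 0.00742, adjusted p = 0.234 by edgeR's exact test). The F1 value stayed called with each library left out in turn and under every alternative tried. Exons of Gpr17 overlap those of Lims2 on the opposite strand. The library kit does not mark strand, so reads in the overlap could not be assigned. Lims2 was at 7.24 and 5.32 CPM in WT, 6.64 and 6.22 CPM in F1, and 5.31 and 7.499 CPM in F2.

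Lhfpl3, a membrane protein gene of the Lhfp family with high expression in precursors, had the fewest reads, between 28 and 63 per library. The gene spans chromosome 5 from 22252011 to 22618785 (mm9). Its level was 0.824 and 1.27 CPM in WT, 1.75 and 1.65 CPM in F1, and 2.36 and 2.12 CPM in F2. The groups were ordered WT, F1, F2 without overlap. The F1 log2 fold change of 0.72 did not pass (standard error 0.32, adjusted p = 0.105). In F2 it was 1.11 (standard error 0.32, adjusted p = 0.00632), but 0.0582 was the adjusted p by DESeq2 and 0.0277 by edgeR's quasi-likelihood test. The F2 call was also lost without WT replicate 1 (log2 fold change 0.82, adjusted p = 0.191), without F2 replicate 1 (adjusted p = 0.12) and without F2 replicate 2 (adjusted p = 0.0424). None of the 5 other Lhfp family genes was called in either comparison.

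Olig1, a basic helix-loop-helix factor of the oligodendrocyte lineage, was the most abundant of the 10 per length. It lies on chromosome 16 from 91270014 to 91272184 (mm9), beside Olig2. Olig1 stood at 45.6 and 50.1 CPM in WT, 69.2 and 67.3 CPM in F1, and 60.6 and 82.3 CPM in F2. Both WT libraries were below all others, and the F2 libraries were further apart than those of WT or F1. It rose by log2 0.51 in F1 (standard error 0.15, adjusted p = 0.00464) and by 0.58 in F2 (standard error 0.15, adjusted p = 0.00113). By the quasi-likelihood test of edgeR the adjusted p-values were 0.0249 and 0.0153, which did not pass. Leaving out any single WT or F1 library also ended the F1 call. In F2 the call was lost without WT replicate 1 (adjusted p = 0.0581) and without F2 replicate 2 (log2 fold change 0.35, adjusted p = 0.141).

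Olig2, the factor that specifies the lineage and whose protein is found in all its stages, was not called. Olig2 spans chromosome 16 from 91225795 to 91228922 (mm9). Olig2 was at 14.7 and 14.9 CPM in WT, 19.0 and 17.8 CPM in F1, and 14.7 and 20.3 CPM in F2. F1 lay above WT, while F2 replicate 1 was at the WT level. Log2 fold changes were 0.31 in F1 (95% interval -0.04 to 0.67, adjusted p = 0.214) and 0.24 in F2 (95% interval -0.11 to 0.60, adjusted p = 0.372). The adjacent Olig1 and Olig2 therefore had overlapping intervals, and a difference between them was not tested.

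Sox10, the HMG-box factor that acts with the Olig proteins and later switches on myelin genes, followed the same order of libraries as Olig2 in F2. It lies on chromosome 15 from 78985343 to 78994920 (mm9). Sox10 was at 14.6 and 15.6 CPM in WT, 23.4 and 20.1 CPM in F1, and 15.4 and 24.9 CPM in F2. F1 did not overlap with WT, and F2 replicate 1 lay within the WT range. The log2 fold change was 0.53 in F1 (standard error 0.21, adjusted p = 0.0534) and 0.42 in F2 (standard error 0.21, adjusted p = 0.145). Without F2 replicate 1 the F2 value was 0.73 and passed (adjusted p = 0.00787).

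C1ql1 encodes a secreted protein with a C1q domain that binds the receptor Bai3. Its locus is on chromosome 11 from 102800578 to 102808002 (mm9). The level was 6.65 and 7.60 CPM in WT, 8.68 and 7.77 CPM in F1, and 6.54 and 8.87 CPM in F2. F1 was above WT by a small margin and F2 spanned the WT range. The log2 fold changes of 0.21 (95% interval -0.21 to 0.63, adjusted p = 0.549) and 0.12 (95% interval -0.31 to 0.54, adjusted p = 0.775) did not pass. Relatives made by the granule neurons were more abundant. C1ql2 was at 135 and 139 CPM in WT, 117 and 111 CPM in F1, and 158 and 121 CPM in F2. C1ql3 was at 176 and 159 CPM in WT, 153 and 208 CPM in F1, and 259 and 213 CPM in F2, with an adjusted p of 0.0109 in F2. Bai3 lay between 104 and 145 CPM in all libraries, and none of these genes was called.

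Vcan, the gene of the matrix proteoglycan versican, was the exception among the 10. Its locus is on chromosome 13 from 89794915 to 89882117 (mm9). Vcan was at 10.4 and 13.5 CPM in WT, 10.3 and 11.1 CPM in F1, and 11.7 and 11.5 CPM in F2. The groups overlapped with WT in both comparisons. Log2 fold changes were -0.16 in F1 (95% interval -0.53 to 0.21, adjusted p = 0.606) and -0.04 in F2 (95% interval -0.41 to 0.33, adjusted p = 0.92), and both turned positive without WT replicate 2. The intervals lie below the F2 estimate for Pdgfra, while the difference between the 2 genes was not tested.

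Bcas1, which marks oligodendrocytes at the onset of myelination, varied most between replicates. The gene spans chromosome 2 from 170172491 to 170253345 (mm9). Its levels were 33.0 and 62.1 CPM in WT, 70.7 and 53.0 CPM in F1, and 35.1 and 73.5 CPM in F2. Each group overlapped with the others. Neither the F1 log2 fold change of 0.38 (standard error 0.31, adjusted p = 0.41) nor that of 0.19 in F2 (standard error 0.31, adjusted p = 0.72) passed. Both turned negative without WT replicate 1, to -0.0039 and -0.19. The summed level of 16 myelin and mature oligodendrocyte genes had a similar order of libraries, at 1265 and 2210 CPM in WT, 3264 and 2534 CPM in F1, and 1783 and 3235 CPM in F2. In both, WT replicate 1 was lowest and F2 replicate 1 next.

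**Figure D2:**
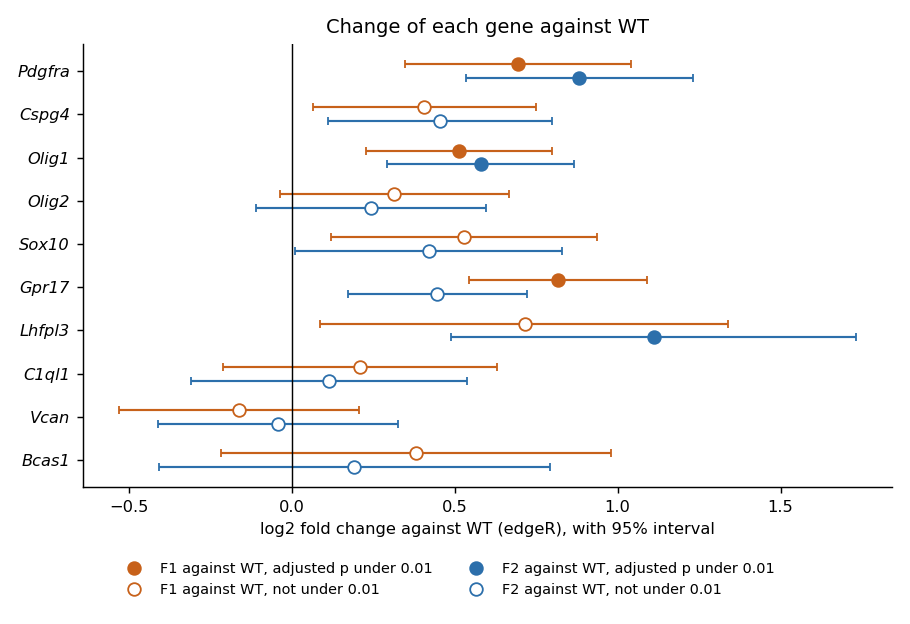
Log2 fold change against WT (horizontal axis) of each oligodendrocyte precursor gene in F1 and in F2, from edgeR, with bars for the 95% interval from the standard error; filled points passed an adjusted p under 0.01. Pdgfra and Olig1 are filled in both comparisons, and the intervals of Olig2, C1ql1, Vcan and Bcas1 cross 0 in both.

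Sequence upstream of the start is shown for Pdgfra and Lhfpl3, which were called in F2, and for Vcan, which was not called in either comparison. The RefSeq promoter table matched 5 of the 10 genes, Pdgfra, Cspg4, Olig2, Lhfpl3 and Vcan. For each, the 250 bases before the RefSeq start were read 5′ to 3′ on the gene's strand, and their single exact match in mm9 gives the position. The stretches lie at chr5:75548026-75548275 on the forward strand for Pdgfra, chr5:22251622-22251871 on the forward strand for Lhfpl3, and chr13:89882118-89882367 on the reverse strand for Vcan. Capitals mark matches to the E-box CANNTG, the core bound by basic helix-loop-helix factors such as Olig1 and Olig2, or to the SOX core ACAAAG or ACAATG, on either strand.
Pdgfra: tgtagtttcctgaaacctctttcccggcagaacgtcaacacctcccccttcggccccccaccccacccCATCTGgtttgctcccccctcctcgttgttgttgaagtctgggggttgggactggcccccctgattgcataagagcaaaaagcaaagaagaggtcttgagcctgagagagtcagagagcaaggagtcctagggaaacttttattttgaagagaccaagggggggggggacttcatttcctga
Lhfpl3: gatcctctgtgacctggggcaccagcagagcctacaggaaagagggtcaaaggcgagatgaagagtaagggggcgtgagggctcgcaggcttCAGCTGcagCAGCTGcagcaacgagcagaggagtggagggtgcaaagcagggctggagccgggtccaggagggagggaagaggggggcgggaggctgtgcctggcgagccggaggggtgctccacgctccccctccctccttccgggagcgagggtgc
Vcan: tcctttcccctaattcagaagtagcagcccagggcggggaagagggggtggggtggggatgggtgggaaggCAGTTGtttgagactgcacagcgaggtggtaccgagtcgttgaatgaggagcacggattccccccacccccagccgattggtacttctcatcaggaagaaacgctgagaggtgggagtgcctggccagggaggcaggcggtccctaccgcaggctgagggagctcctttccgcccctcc

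The E-box occurred 1 time upstream of Pdgfra, 2 times upstream of Lhfpl3 and 1 time upstream of Vcan, and in none of these did the SOX core occur. Upstream of Olig2 there was 1 SOX core and no E-box, and upstream of Cspg4 neither. No match to one motif overlapped a match to the other. Of 32851 upstream stretches of the same length in the table, 66.2% held an E-box and 25.2% a SOX core.

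The order of the 10 genes by level was taken per length, as CPM per kb of exon averaged over the 6 libraries. Olig1 was highest at 28.8 CPM per kb, with a range of 21.0 to 37.9, and was apart from Bcas1 at 14.5 CPM per kb. Bcas1, Sox10 (7.002), Olig2 (6.94), Gpr17 (5.27), C1ql1 (5.22), Pdgfra (4.36), Lhfpl3 (2.33) and Cspg4 (1.45) followed in CPM per kb, and in this run each gene's range overlapped that of the next. Vcan was lowest at 0.789 CPM per kb, below the range of Cspg4. Lhfpl3 has 713 bp of annotated exon and Vcan 14467 bp, so the order by CPM alone would differ.

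**Figure D3:**
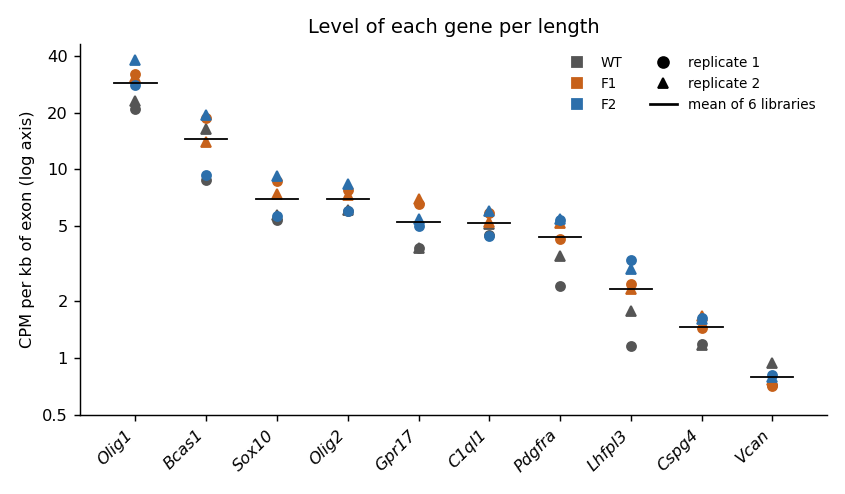
CPM per kb of annotated exon (vertical log axis) of the 10 oligodendrocyte precursor genes in each library, with the mean of the 6 libraries as a bar, ordered by that mean. Olig1 lies above and Vcan below all other genes in every library.

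Of the 10 genes, 8 had both F1 libraries above both WT libraries, where 29.8% of all tested genes did. In F2, 5 genes lay above WT without overlap, against 31.0% of all tested genes. These were Pdgfra, Cspg4, Olig1, Gpr17 and Lhfpl3. The genes that overlapped in F2 were Olig2, Sox10, C1ql1 and Bcas1, in each of which F2 replicate 1 was lower than F2 replicate 2, together with Vcan. The median difference of replicate 2 minus replicate 1 over the 10 genes, as log2(CPM + 0.5), came to 0.16 for WT, -0.05 for F1 and 0.27 for F2. Over all genes it was -0.016, -0.0057 and 0.00091. In F2, 7 of the 10 genes were higher in replicate 2, from Bcas1 with a difference of 1.06 and Sox10 with 0.68 down to Pdgfra with 0.01. Pdgfra, Cspg4, Gpr17, Lhfpl3 and Vcan had replicate differences of 0.134 or less in size there.

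Between F2 and F1 none of the 10 genes was called by edgeR's exact test, where 0.740% of all tested genes were. At an unadjusted p under 0.05 there was 1, Gpr17, and no gene was called by the quasi-likelihood test, the likelihood-ratio test or DESeq2. Libraries of F2 lay above those of F1 without overlap in Pdgfra, Lhfpl3 and Vcan, and below them in Gpr17, where 19.4% and 19.7% of all genes did so. The 95% interval of the F2 minus F1 log2 difference was -0.16 to 0.53 for Pdgfra, -0.22 to 0.35 for Olig1 and -0.19 to 0.97 for Lhfpl3.

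Genes outside the 10 were counted by list. Of 18 further precursor markers, none was called in F1 and 4 were called higher in F2, with a median log2 fold change of 0.21 and 0.20. The log2 fold change was above 0 for 16 of the 18 in F1 and for 12 in F2. Megf11 (-0.36), Lnx1 (-0.32), Pcdh15 (-0.32) and Matn4 (-0.12) lay below WT without overlap in F2 and were not called. The genes called in F2 were Gpr37l1 (log2 fold change 0.56, adjusted p = 3.7e-05), Cspg5 (0.46, adjusted p = 0.000545), Ptprz1 (0.44, adjusted p = 0.00699) and Rlbp1 (0.69, adjusted p = 0.00808). Without WT replicate 1, F2 replicate 1 or F2 replicate 2 the count was 1, and it was 2 without WT replicate 2 and by the quasi-likelihood test. Gpr37l1, Cspg5 and Ptprz1 are also expressed by astrocytes. Among 20 transcription factors of precursor specification and differentiation, Sox6 rose in F2, from 5.09 and 5.95 CPM in WT to 11.5 and 8.61 CPM (log2 fold change 0.87, adjusted p = 0.00367). Zfp488, a zinc finger gene of the oligodendrocyte lineage, fell from 34.9 and 43.0 CPM in WT to 25.9 and 19.98 CPM in F1 and 20.3 and 20.2 CPM in F2. Its log2 fold changes were -0.76 (adjusted p = 8.8e-05) and -0.95 (adjusted p = 7.3e-07), where 8.54% and 8.10% of all tested genes were called lower. No other of the 20 was called in either comparison. The F1 call of Zfp488 was lost without WT replicate 2, while 3 of the 20 were called in F1 without F1 replicate 1. In F2 the count was 1 without WT replicate 1 and by the quasi-likelihood test, and 5 without either F1 library.

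Markers of committed precursors and new oligodendrocytes gave 3 calls in 13 genes in F1 and 1 in F2. Enpp6, a choline phosphodiesterase gene that marks newly formed oligodendrocytes, rose from 0.559 and 0.845 CPM in WT to 2.71 and 1.94 CPM in F1 and 1.83 and 2.19 CPM in F2. The log2 fold change was 1.74 for F1 (standard error 0.35, adjusted p = 1.82e-05) and 1.53 for F2 (standard error 0.36, adjusted p = 0.00041). In both WT libraries Enpp6 was lower than Lhfpl3, so these values rest on few reads. Kif19a rose in F1 (log2 fold change 1.12, adjusted p = 0.00626) and Rras2, a small GTPase gene, fell there (log2 fold change -0.67, adjusted p = 7.96e-06). Without WT replicate 1 the list had 1 call in F1, and the F2 call of Enpp6 was lost without WT replicate 1, without F2 replicate 2 and by the quasi-likelihood test. Of 16 myelin and mature oligodendrocyte genes, 5 were called higher in F1 and 2 in F2, and all 16 had log2 fold changes above 0 in both, with medians of 0.80 and 0.59. Cldn11, the tight junction gene of myelin, rose from 19.8 and 33.2 CPM in WT to 71.3 and 53.3 CPM in F1 and 38.5 and 67.5 CPM in F2. Cnp rose in both as well, and Mag, Mal and Fa2h in F1. No myelin gene was called by the quasi-likelihood test or without WT replicate 1 in either comparison, and none in F2 without F2 replicate 2. Without WT replicate 2 the counts were 11 in F1 and 7 in F2.

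Matrix genes related to Cspg4 and Vcan were called in both directions. Of the 21 tested genes of chondroitin sulphate proteoglycans, their link proteins and their synthesis, 2 were called higher and 1 lower in each comparison with WT. Chpf2, a chondroitin polymerizing factor, fell from 46.4 and 38.5 CPM in WT to 24.1 and 25.6 CPM in F1 and 25.2 and 26.1 CPM in F2 (log2 fold changes -0.77 and -0.73, adjusted p = 3.01e-06 and 1.67e-05). Chst11 and the link protein gene Hapln4 rose in F1, and Chst15 and Chsy3 rose in F2. All 3 calls in F2 were lost without F2 replicate 1, and 1 was made without WT replicate 1, WT replicate 2 or F2 replicate 2.

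Markers of other glia were counted in the same way. Of 12 microglia genes, 1 was called higher in F1 and 6 in F2, and their summed level was 177 and 175 CPM in WT, 213 and 250 CPM in F1, and 278 and 245 CPM in F2. Of 12 astrocyte genes, 1 was called higher and 1 lower in F1 and 6 were called higher in F2, with sums of 2690 and 2920 CPM in WT, 3197 and 3830 CPM in F1, and 4330 and 3658 CPM in F2. In F2 the quasi-likelihood test called 1 gene of each of these lists. Without F2 replicate 1 the F2 counts were 0 for astrocytes and 1 for microglia, and without WT replicate 1 they were 2 and 1. The endothelial list of 9 genes gave 1 call in F1 and 2 in F2, all higher. Among 12 fibroblast genes, 2 were called lower in F1 and none in F2. The granule neuron list had 1 of 10 genes called lower in each comparison, Plk5, and none higher. The 11 proliferation genes summed to between 21.5 and 26.1 CPM, with Birc5 called lower in F1. Their part in the values of the precursor genes was not tested. F2 replicate 1 was highest in the astrocyte, microglia and endothelial sums, and lower than F2 replicate 2 in the myelin sum, the order in which Bcas1, Sox10, Olig2 and Olig1 also stood.

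**Figure D4:**
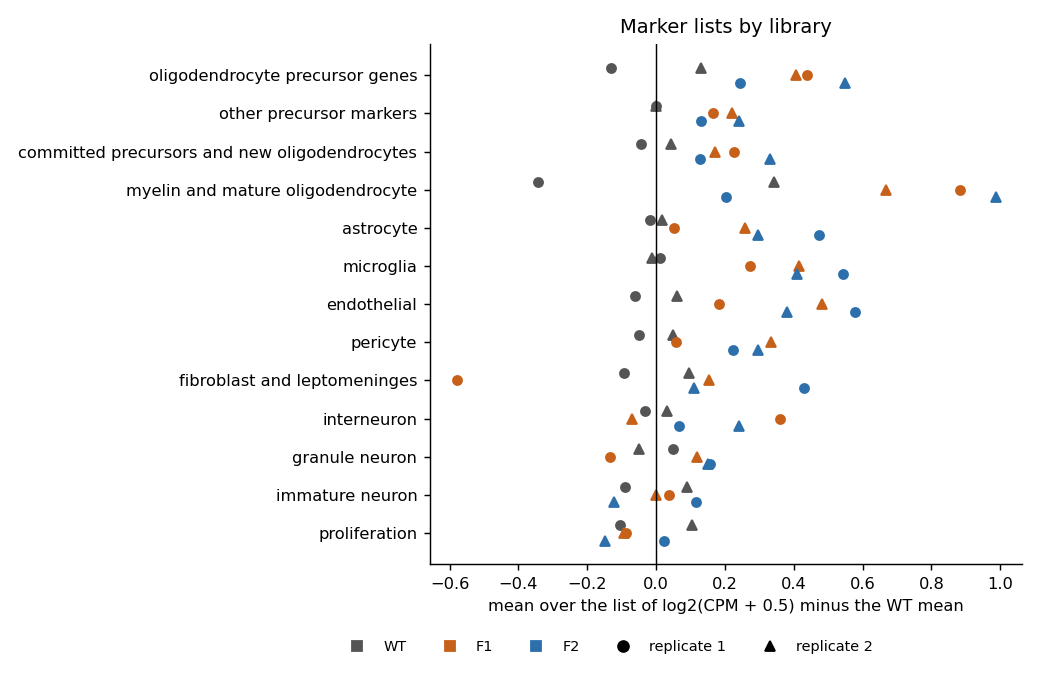
Mean over the genes of each marker list of log2(CPM + 0.5) minus the WT mean (horizontal axis), by library, with colours for groups, circles for replicate 1 and triangles for replicate 2. The oligodendrocyte precursor genes lie between 0.25 and 0.55 in F1 and F2, and the myelin list has the widest spread within WT and within F2.

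The genes most like the mean pattern of the 10 were sought among 12155 genes outside the lists with a mean of at least 100 counts. Likeness was the root mean square difference over the 6 libraries between centred log2(CPM + 0.5) values. The nearest were Taf4b (0.029), Gab1 (0.042), Jrk (0.047), Pcdh10 (0.047) and Plekhb1 (0.048). Plekhb1, for example, was at 97.5 and 127 CPM in WT, 160 and 150 CPM in F1, and 138 and 171 CPM in F2.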

How the data were processed

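RNA-Seq of the microdissected ventral dentate gyrus was analysed in 6 libraries. Per the paper's methods, the authors aligned single-end reads to mm9 with TopHat against known junctions and deposited raw read counts per gene from HTSeq in intersection-strict mode. Such counts omit reads that align to several places, reach beyond annotated exons or lie in exons of more than 1 gene. The rows of the deposited counts that name no gene held 35.3% to 46.6% of the total and were left out. The strand setting and annotation used for counting are not given in the sources used here, and the kit does not mark strand. Bisulfite samples were not analysed here.

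Groups and replicates follow the labels. After filterByExpr, TMM factors were applied and groups compared by edgeR's exact test (edgeR 4.0.16, R 4.3.3), with common then tagwise dispersion over all 3 groups and Benjamini-Hochberg adjustment over 17421 genes. Calls used an adjusted p under 0.01. The common dispersion of 0.0113 equals a coefficient of variation of 10.6%. Standard errors follow from counts and dispersion by the delta method, and 95% intervals from them. Precision is limited by the 2 libraries a group and, for genes with few reads such as Lhfpl3 and Enpp6, by counting error. Replicates were not duplicates (chi-square per degree of freedom between 20 and 25). Quasi-likelihood and likelihood-ratio tests with and without the replicate block, DESeq2 1.42.0, other scalings, filters and dispersions, calls at 0.05 and fits without each library in turn were the alternatives.

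The main test did not pair libraries by the numbers 1 and 2 in their labels. Replicate differences correlated across genes at -0.00862 (WT and F1), -0.0898 (WT and F2) and -0.23 (F1 and F2). These values show no strong shared difference but cannot exclude a batch or litter common to libraries of the same number. Positions and exon lengths are from GENCODE M1 on mm9. Promoters come from RefSeq (GRCm38.p6) and were matched to mm9. Of genes in the other lists, those called were named, at most 5 by size per list and comparison, with all C1q-like and PDGF genes tested. The members and lists were chosen with earlier results of these data known. The procedure was run on simulated counts in which every gene had the common dispersion. Such a simulation cannot show how genes that vary more between replicates, such as Bcas1, are called. Python 3.11.15, pandas 2.3.3 and matplotlib 3.10.9 made the tables and plots.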

Additional observations from a re-analysis of the deposited data

Results flagged for a closer look

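No oligodendrocyte precursor gene was called between F2 and F1 by edgeR's exact test. In the other lists, 5 genes were, each with an adjusted p under 0.01 for F2 against F1. Lnx1, an E3 ligase gene among the further precursor markers, was lower in F2 than in F1 (log2 fold change -0.81), at 12.1 and 11.98 CPM in F1 and 5.94 and 7.80 CPM in F2. Hapln4 was also lower in F2 (log2 fold change -0.81). Higher in F2 than in F1 were the astrocyte gene Ntsr2 (log2 fold change 0.64) and the fibroblast genes Lum (0.73) and Ogn (0.81). Against WT, however, Ntsr2, Lum and Ogn were called lower in F1 (-0.845, -0.619 and -0.988) and Hapln4 higher (0.771). None of them was called in F2 against WT (-0.203, 0.109, -0.176 and -0.0393). Lnx1 was called in neither comparison with WT. For F2 against F1 the quasi-likelihood test made no call in the lists of these 5 genes. The calls of Lum and Ogn were lost without F1 replicate 1, F2 replicate 1 or F2 replicate 2, that of Hapln4 without F2 replicate 1, and that of Lnx1 with any single library but F1 replicate 2 left out. Without F1 replicate 2 the fibroblast list had 5 calls. The astrocyte list had 1 call with each library left out.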

How the results depend on the processing

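The called genes kept their direction in the comparison they were called in under every alternative run, and of the 6 calls that of Gpr17 in F1 alone held under all of them. The count of precursor genes called was 3 in F1 and 3 in F2. It was 1 and 1 by the quasi-likelihood test, 2 and 1 by that test with the replicate block, 3 and 2 by likelihood ratio with the replicate block, and 3 and 5 at a threshold of 0.05. Leaving out a library gave 1 to 3 in F1, 0 to 4 in F2 and 0 for F2 against F1. What libraries with the same replicate number share is not stated in the sources used here. All genes called numbered 2144 in F1, 2084 in F2 and 129 for F2 against F1. These were 1029, 997 and 2 by the quasi-likelihood test, 848, 758 and 9 with the block, 3623, 3606 and 230 at 0.05, and 988 to 2043, 703 to 2585 and 52 to 223 with a library left out.

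Signs turned only with a library left out and only in comparisons in which the gene was not called. The F1 log2 fold change then ran from -0.34 to 0.0519 for Vcan and from -0.00392 to 0.918 for Bcas1, below 0 for Bcas1 without WT replicate 1. In F2 it ran from -0.00464 to 0.464 for Olig2, -0.116 to 0.323 for C1ql1, -0.218 to 0.17 for Vcan and -0.433 to 0.728 for Bcas1. Olig2 and C1ql1 turned without F2 replicate 2, Bcas1 without it or WT replicate 1 (-0.189), and Vcan without WT replicate 2. For F2 against F1 it ran from -0.0569 to 0.16 for Cspg4, -0.172 to 0.273 for Olig1, -0.327 to 0.148 for Olig2, -0.503 to 0.201 for Sox10, -0.331 to 0.113 for C1ql1 and -0.82 to 0.252 for Bcas1. The cause was not tested. Among the oligodendrocyte precursor genes, depth limits Lhfpl3 most.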

Other observations

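Inhibitory neuron genes were not described above. Of 10 interneuron genes, Slc32a1, the vesicular GABA transporter gene, rose in both F1 and F2 (log2 fold changes 0.65 and 0.60, adjusted p = 2.39e-05 and 0.000129 by edgeR's exact test). Over the 10 genes the log2 fold change was above 0 for 9 in F1 and for 6 in F2. Sst, Npy, Cck and Pvalb were below 0 in F2 (-0.39, -0.31, -0.04 and -0.01), and of these Npy alone lay below WT without overlap. Gad2 and Reln were called higher in F2 (0.56 and 0.49). The F2 count of this list was 1 without WT replicate 1, WT replicate 2 or F2 replicate 2, and the F1 count was 3 without F1 replicate 1. None of the 8 immature neuron genes was called by this test in either comparison, and of the 12 pericyte genes only Vtn was called, in F2 (0.67, adjusted p = 0.00713). The Vtn call was lost with any single WT or F2 library left out and by the quasi-likelihood test and DESeq2.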
